A study of Mus musculus with 6 samples.

Results

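TMEM65, NACC2 and PPP2R2B are 3 genes whose mRNA signal was higher at 4 h than at 16 h in synchronized L-cells. They were taken as every probe of the deposited intensity table that carries one of these symbols, which gave 8 of 45281 probes, 3 for TMEM65, 2 for NACC2 and 3 for PPP2R2B, and 3 of 28902 genes. The genes had been selected on their difference between these same time points, so that their own differences are given as descriptions, without tests. The question was whether the probes of each gene gave like values, which of them were detected, and how far each rose beyond the difference in brightness that all probes shared.

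The cells were mGLUTag, an immortalized mouse line of enteroendocrine L-cell origin that releases glucagon-like peptide-1 (GLP-1). Both groups were cells of this line that had been starved of serum to make them quiescent, synchronized with forskolin, which raises cAMP, and returned to growth medium. RNA was taken at 4 h (n = 3) and at 16 h (n = 3), which the study used because Arntl, the gene for the clock factor BMAL1, peaks at the first and is lowest at the second, and each sample was read on 1 array of a mouse Illumina BeadChip. The arrays hold no unsynchronized or untreated cells, so that time since forskolin and circadian phase cannot be told apart. Whether the replicates were separate cultures is not stated, and p-values therefore measure the spread between these samples only.

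TMEM65 is a protein of the inner mitochondrial membrane that has been tied to the export of calcium from mitochondria, and in heart muscle to the gap junction protein connexin 43. NACC2 is a transcriptional repressor with a BTB domain and a BEN domain, which brings the NuRD complex, a nucleosome remodeller with histone deacetylase activity, to genes such as Mdm2. PPP2R2B is a B55 regulatory subunit of protein phosphatase 2A (PP2A), the subunit type that directs the enzyme to its substrates, and is best known from neurons.

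Promoter sequence was available from RefSeq (assembly GRCm38.p6) for Nacc2, for which 2 transcript starts were listed. Both windows are shown because they are the regulatory sequence at hand for a member. Each runs from 250 bases before to 50 bases after the start, on the minus strand, from 5′ to 3′, with matches to the E-box-like letters CANNTG in capitals.
Nacc2 upstream start, chr2:26122762-26123061: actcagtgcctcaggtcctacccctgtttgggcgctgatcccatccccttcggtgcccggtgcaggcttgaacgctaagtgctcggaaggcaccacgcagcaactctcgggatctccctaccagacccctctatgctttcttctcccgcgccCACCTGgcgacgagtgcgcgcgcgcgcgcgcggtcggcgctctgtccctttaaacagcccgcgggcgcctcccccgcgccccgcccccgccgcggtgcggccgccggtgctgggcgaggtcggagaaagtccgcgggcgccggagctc
Nacc2 downstream start, chr2:26092347-26092646: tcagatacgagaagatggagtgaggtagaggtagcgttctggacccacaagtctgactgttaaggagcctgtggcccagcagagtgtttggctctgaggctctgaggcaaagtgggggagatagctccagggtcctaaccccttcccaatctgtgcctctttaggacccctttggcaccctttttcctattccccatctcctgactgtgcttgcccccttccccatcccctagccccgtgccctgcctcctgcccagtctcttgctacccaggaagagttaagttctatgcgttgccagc
The upstream window had a GC content of 71.0% and 39 CpG dinucleotides, and the downstream window 56.3% and 4, whereas the median over 32851 windows of the same length was 52.7% and 7. Letters of elements bound by clock and cAMP-responsive factors were searched on both strands. CANNTG was found once in the upstream window and not in the downstream one, and 72.3% of all windows held it. Neither window held the canonical E-box CACGTG (7.15% of all windows), which is itself a form of CANNTG, the cAMP response element TGACGTCA (1.79%) or the TGACG that lies within it (20.8%). Neither held the D-box TTATGTAA (0.938%) or the ROR half-site AGGTCA (16.3%) either. These are matches of letters within 300 bases and do not show binding.

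To read the members against the arrays as a whole, the deposited intensities were examined first. Each array was given its own noise limit, derived from the values below 0, which lay between 9.2 and 14 intensity units. Of all probes, 14941 exceeded it on every array and are called detected below, and 24356 exceeded it on none. The mean intensity of the 4 h arrays was 322 ± 31.3 (SD, n = 3), that of the 16 h arrays was 236 ± 17.0 (SD, n = 3), and the median log2 ratio of 4 h over 16 h among detected probes was 0.55. This shared difference was subtracted from the log2 ratio of each member, and the remainder is called the excess. Of the L-cell and enteroendocrine markers examined, 10 of 13 were detected, with a summed intensity from 39250 to 46855 at 4 h and from 25312 to 30890 at 16 h. These are sums of deposited intensities, which still contain the shared difference in brightness, and no change in cell identity is read from them. Pyy, the gene for peptide YY, exceeded the limit on no array. Markers of enterocytes (0 of 3 detected), Paneth cells (0 of 3) and immune cells (0 of 4) were not detected on all arrays, 1 of 3 goblet cell markers was (Tff3), and 1 of 4 fibroblast markers was (Col1a1). Fewer cells of a type and less RNA per cell cannot be told apart in such bulk samples.

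Of the 8 member probes, 5 were detected, 2 were above the limit on some arrays and 1 on none. In all 5 detected probes the 3 intensities at 4 h lay above the 3 at 16 h, which was also true of 49.2% of all detected probes before normalization.

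**Figure D1:**
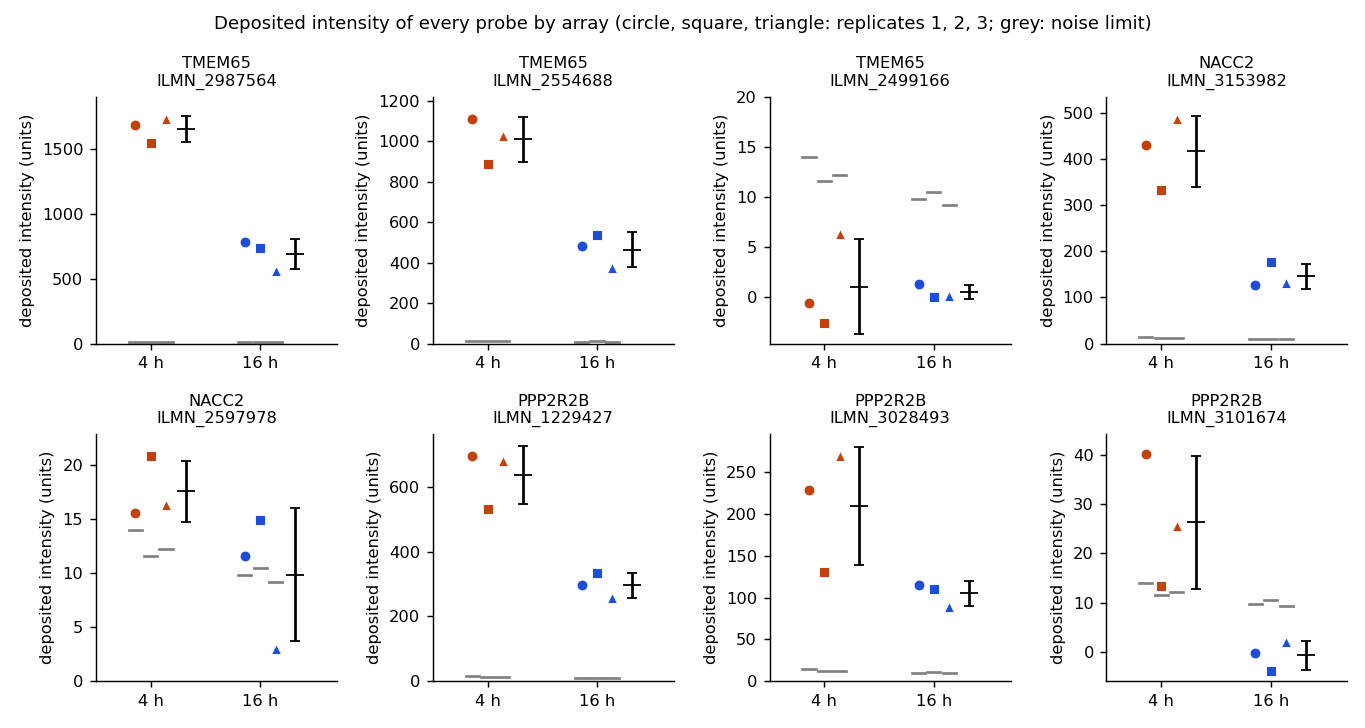
Deposited intensity (vertical axis, linear units) of the 8 probes of TMEM65, NACC2 and PPP2R2B on the 3 arrays at 4 h (orange) and the 3 at 16 h (blue), with mean ± SD in black and the noise limit of each array in grey. In 5 panels all values lie far above the noise limit and the 4 h values above the 16 h values, whereas 3 panels show values near or below the limit.

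TMEM65 was represented by 2 bright probes. Probe ILMN_2987564 read 1688, 1546 and 1733 units on the 4 h arrays, and 781, 740 and 562 units on the 16 h arrays. The groups were well separated, with the lowest 4 h value 1.98-fold above the highest 16 h value. The means were 1656 ± 98.0 (SD, n = 3) and 694 ± 117 (SD, n = 3), a 2.39-fold difference. Its log2 ratio of 1.25 left an excess of 0.71, or 1.63-fold, and an excess of 0.77 over the median ratio of 0.49 of the brightest of 5 intensity classes of detected probes, to which it belongs. It ranked 132 among the 14941 detected probes by this ratio.

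Probe ILMN_2554688 gave 1110, 889 and 1029 at 4 h and 485, 538 and 372 at 16 h. These groups were also apart, by 1.65-fold between the nearest arrays, with means of 1009 ± 112 (SD, n = 3) and 465 ± 84.8 (SD, n = 3). Its 2.17-fold difference, a log2 ratio of 1.12, left an excess of 0.57, smaller than that of the first probe. The ranges of both probes overlapped in part when single pairs of arrays were taken. The 9 pairs of a 4 h and a 16 h array gave an excess from 0.50 to 0.96 for ILMN_2987564 and from 0.43 to 0.76 for ILMN_2554688, each pair corrected by its own shared difference of between 0.21 and 0.89. Every one of the 9 pairs was above 0 for both probes.

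The other TMEM65 probe, ILMN_2499166, did not register the transcript on any array. It read -0.6, -2.7 and 6.3 units on the 4 h arrays, and 1.3, 0 and 0.1 units on those of 16 h, below the noise limit throughout, so that its change cannot be given. A further 2 probes reach Tmem65 only through an older clone name, 4930438D12RIK, and were kept apart from the 8. Of these, ILMN_2548916 was detected, at 321, 237 and 384 at 4 h and 204, 138 and 110 at 16 h, a 2.09-fold difference with an excess of 0.51. Its 4 h array with the lowest value exceeded its 16 h array with the highest, but by little, and 8 of its 9 array pairs had an excess above 0, from -0.03 to 0.98. The second, ILMN_2709399, exceeded the limit on no array.

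NACC2 was measured by a bright and a dim probe. Its brighter probe, ILMN_3153982, was at 430, 334 and 486 at 4 h and at 128, 176 and 132 at 16 h. The lowest 4 h array was 1.89-fold above the highest 16 h array, and the means were 417 ± 77.3 (SD, n = 3) and 145 ± 26.7 (SD, n = 3). This was a 2.86-fold difference, a log2 ratio of 1.52, with an excess of 0.97 or 1.96-fold. By ratio it ranked 23 among the 14941 detected probes, in their highest 0.154%. The excess was above 0 in all 9 array pairs, from 0.71 to 1.38 with a median of 0.96.

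The second NACC2 probe, ILMN_2597978, was close to the noise limit. It read 15.6, 20.8 and 16.3 at 4 h, above the limit on 3 of 3 arrays, and 11.6, 14.9 and 3 at 16 h, above it on 2 of 3. The 4 h values were all higher, but after normalization the time points overlapped (6.29 ± 0.10 and 6.20 ± 0.14, SD, n = 3). Its normalized difference of 0.09 is compressed by the offset added during background correction. The excess of its deposited means was 0.29, and on the normalized scale the excess was 0.72 without background correction, 0.16 with an offset of 16, and -0.18 with no between-array normalization or with median scaling. The size of its difference therefore depends on the processing.

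PPP2R2B was measured by probes of unlike brightness. Probe ILMN_1229427 read 696, 534 and 682 units on the 4 h arrays, and 298, 335 and 256 units on the 16 h arrays. The 4 h arrays were all higher, by 1.60-fold between the nearest, with means of 637 ± 90.0 (SD, n = 3) and 296 ± 39.2 (SD, n = 3). The 2.15-fold difference, a log2 ratio of 1.11, left an excess of 0.56. This excess varied least of the detected member probes, from 0.47 to 0.65 over the 9 array pairs.

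Probe ILMN_3028493 of PPP2R2B gave 229, 131 and 269 at 4 h and 116, 111 and 88.4 at 16 h. Its spread at 4 h was wide (210 ± 70.9 against 105 ± 14.4 at 16 h, SD, n = 3), because 4 h replicate 2 lay only 1.14-fold above the highest 16 h array. Its log2 ratio of 1.00 left an excess of 0.45, but in single array pairs the excess ran from -0.06 to 0.78 and was above 0 in 8 of 9. The last probe, ILMN_3101674, was seen at 4 h alone, with 40.3, 13.3 and 25.5, above the limit on 3 of 3 arrays, against -0.3, -3.9 and 2 at 16 h, above it on 0 of 3. Since the 16 h level is only bounded by background, its normalized level at 4 h was at least 1.12-fold higher, from a mean of 6.38 against a bound of 6.22 and a measured mean of 5.95. As computed, its excess was 0.43, and 0.83 with an offset of 16. It was 3.97 without background correction and 0.18 with no between-array normalization or with median scaling. Because the 16 h values were at background, none of these is a size of the change, and only the bound is read.

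**Figure D2:**
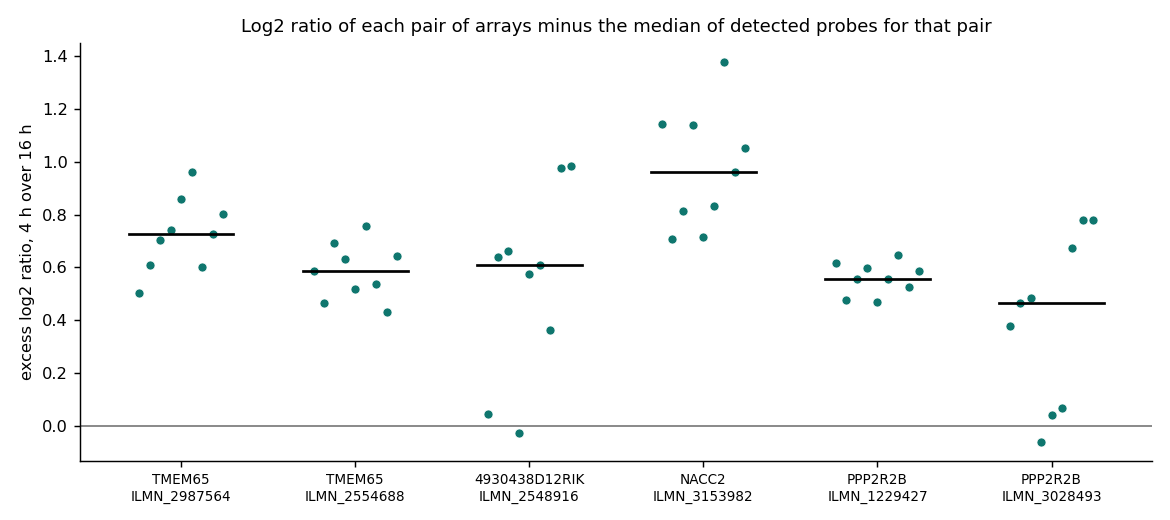
Excess log2 ratio of 4 h over 16 h (vertical axis) for each of the 9 pairs of a 4 h and a 16 h array (points, each minus the median of detected probes for that pair) and its median (black line), for the 5 detected member probes and the detected probe under the older name of Tmem65. The pairs are not independent, since each array enters 3 of them; NACC2 ILMN_3153982 spans 0.71 to 1.38, and the probes ILMN_2548916 and ILMN_3028493 reach below 0.

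To place the members on a scale common to all arrays, intensities were background corrected with an offset of 50, quantile normalized and transformed to log2. On this scale the median difference of detected probes was 0.0014, so that a difference is itself close to the excess. TMEM65 probe ILMN_2987564 was at 10.46, 10.59 and 10.54 at 4 h and 9.94, 9.79 and 9.74 at 16 h, a difference of 0.71 (SE 0.077, limma). The arrays of a time point lay closer together than on the deposited scale (10.53 ± 0.06 and 9.82 ± 0.10, SD, n = 3), and the gap between the time points was 0.53. The second bright probe, ILMN_2554688, was at 9.84 ± 0.04 and 9.29 ± 0.09 (SD, n = 3), a difference of 0.55 (SE 0.072), again without overlap.

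NACC2 probe ILMN_3153982 was at 8.63, 8.62 and 8.80 at 4 h and 7.72, 8.05 and 7.98 at 16 h. Its difference of 0.77 (SE 0.099) ranked 4 among the detected probes, and that of TMEM65 ILMN_2987564 ranked 9. The NACC2 values spread more at 16 h (7.92 ± 0.17, SD, n = 3) than at 4 h (8.68 ± 0.10), 16 h replicate 1 being the lowest, and the gap between the time points was 0.57.

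PPP2R2B probe ILMN_1229427 was at 9.24, 9.19 and 9.25 at 4 h and 8.69, 8.78 and 8.74 at 16 h. Replicates of this probe lay very close together, with a pooled SD of 0.039 that was in the lowest 0.91% of detected probes, and its difference was 0.49 (SE 0.065). The values of ILMN_3028493 were 7.87, 7.62 and 8.09 at 4 h and 7.62, 7.58 and 7.58 at 16 h, a difference of 0.27 (SE 0.11) in which 4 h replicate 2 came within 0.0019 of the highest 16 h array. Without 4 h replicate 3 this difference was 0.15, so that 1 array set much of its size. The difference of the older-name Tmem65 probe ILMN_2548916 was 0.39 (SE 0.13), with 16 h replicate 1 (8.23) next to 4 h replicate 2 (8.24) and the other 16 h arrays at 7.79 and 7.80.

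After normalization, the 4 h and 16 h values were apart in 5 of 5 detected member probes, against 6.12% of all detected probes that were higher at 4 h without overlap. Because the genes had been chosen by this contrast, nothing is read from that count.

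**Figure D3:**
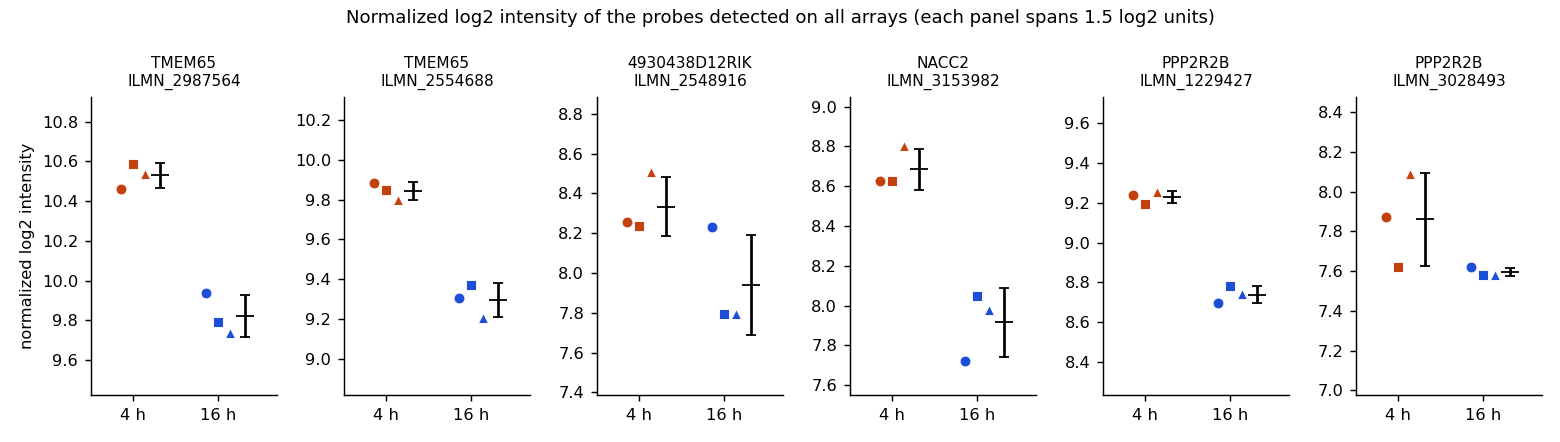
Normalized log2 intensity (vertical axis) by array of the 5 detected member probes and the detected probe under the older name of Tmem65, at 4 h (orange) and 16 h (blue), with circles, squares and triangles for replicates 1, 2 and 3 and mean ± SD in black. Each panel spans 1.5 log2 units, and the time points are separated by a gap of between 0.41 and 0.57 in 4 panels and by less than 0.01 in those of ILMN_2548916 and ILMN_3028493.

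The arrays were also separated by signal for 18S ribosomal RNA and 1 probe of Actb, which was high on 4 h replicates 1 and 3 and on 16 h replicate 1. Within these 3 arrays the difference of TMEM65 ILMN_2987564 was 0.56, and within the other 3 it was 0.82. The corresponding values were 0.99 and 0.61 for NACC2 ILMN_3153982 and 0.55 and 0.43 for PPP2R2B ILMN_1229427, so that the brightest probe of each gene was higher at 4 h on both sides of the separation. The difference of ILMN_3028493 was 0.36 within the arrays of high 18S signal and 0.04 within the others, and that of ILMN_2548916 was 0.15 and 0.44. In each set one time point is represented by a single array, and no test was made.

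To see which other transcripts shared these patterns, each detected probe was centred on its mean over the 6 arrays and its root mean square distance to the brightest probe of each member was taken. The profile of TMEM65 was nearest to that of Atf5, a stress-responsive transcription factor (distance 0.05 log2 units, difference 0.64), then Id1, an inhibitor of basic helix-loop-helix factors (0.089, difference 0.76), and Slc30a10, a manganese transporter (0.090, difference 0.57). For comparison, TMEM65 itself departed from its mean by 0.36. NACC2 was nearest to an unnamed clone, A730054J21RIK (distance 0.061, difference 0.71), then C2cd4a (0.12, difference 0.60) and Slc24a3, a potassium-dependent sodium/calcium exchanger (0.13, difference 0.59). Its own departure was 0.40.

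PPP2R2B was nearest to Arntl, the clock gene by which the time points had been chosen, at a distance of 0.028 against its own departure of 0.25. The normalized level of Arntl was 7.39 at 4 h and 6.87 at 16 h, a difference of 0.52 beside the 0.49 of PPP2R2B. Kpna1, an importin (0.036, difference 0.46), and Ralgps2, a Ral exchange factor (0.039, difference 0.48), followed. Among themselves the members were further apart, with distances of 0.17 between TMEM65 and NACC2, 0.14 between TMEM65 and PPP2R2B and 0.17 between NACC2 and PPP2R2B. These distances are descriptions over 6 arrays of 2 time points, and any probe with a like difference and a small spread is near.

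The genes of each pathway were then examined from 3 lists, one probe per gene. Over all 28902 genes, limma with Benjamini-Hochberg adjustment over all probes called 0.00346% higher and 0.00692% lower at 4 h. At an unadjusted p under 0.05 the shares were 3.03% and 2.89%. None of the listed genes was among those called. The median difference over all genes above the noise limit on at least 3 arrays was 0.00020.

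PP2A is built from a scaffold, a catalytic and a regulatory subunit, and of 30 listed subunits and regulators beside PPP2R2B, 27 had a probe and 25 were above the limit on at least 3 arrays. By limma, 0 were called higher and 0 lower, whereas at an unadjusted p under 0.05 the counts over the 27 were 5 and 0, of which 4 and 0 were among the 25 above the limit. Of the 25, 13 had a difference above 0 and 12 below, with a median of 0.00036 and a range from -0.32 to 0.33. The other B55 subunits had differences of -0.03 for Ppp2r2a (SE 0.090, limma adjusted p = 0.989), 0.18 for Ppp2r2c (SE 0.10, adjusted p = 0.935) and 0.20 for Ppp2r2d (SE 0.078, adjusted p = 0.878). None of these passed the threshold, and their differences lay below the 0.49 of the brightest PPP2R2B probe. The other detected PPP2R2B probe, ILMN_3028493, was at 0.27 (SE 0.11), closer to Ppp2r2c and Ppp2r2d. These comparisons were not tested. The catalytic subunits Ppp2ca and Ppp2cb were at 0.05 and 0.08.

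The smallest p among the PP2A genes belonged to the scaffold subunit Ppp2r1b, with 110, 83.4 and 114 units on the 4 h arrays, and 43.1, 47.2 and 41.2 units on those of 16 h. The time points did not overlap, and the normalized difference was 0.33 (SE 0.069, limma adjusted p = 0.376), against 0.12 at its other detected probe. Cip2a, an inhibitor of PP2A, exceeded the limit on 3 of the 4 h arrays and 0 of the 16 h arrays, so that its level is only bounded at 16 h. Its normalized level was at least 1.14-fold higher at 4 h (mean 6.40 against a bound of 6.22 and a measured mean of 6.16, limma adjusted p = 0.718). In the other direction, Ptpa, an activator of PP2A, was at -0.32 (SE 0.15, adjusted p = 0.919) and the B56 subunit Ppp2r5d at -0.19 (SE 0.10, adjusted p = 0.924). The other detected probe of Ptpa was at -0.04, and the other 5 of Ppp2r5d were between -0.11 and 0.16. Neither gene passed the threshold, and at the brightest probe of each the time points overlapped.

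Of 23 genes listed with NACC2, namely its paralogue, other BEN domain genes, NuRD subunits and p53 pathway genes, 18 had a probe and 15 were above the limit on at least 3 arrays. By limma 0 were called in either direction, with counts of 2 and 0 at an unadjusted p under 0.05. The median difference of the 15 was -0.0025, from -0.23 to 0.56. The paralogue Nacc1 was at 0.0012 (SE 0.11, limma adjusted p = 0.999). Mdm2, a gene that NACC2 is known to repress, was at -0.00058 (SE 0.094, adjusted p = 0.999), and its other detected probe was at -0.13.

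Within this list the NuRD histone chaperone Rbbp4 stood nearest to the threshold. Its brightest probe was at 1309, 1155 and 1142 at 4 h and at 597, 569 and 487 at 16 h, with no overlap and a normalized difference of 0.56 (SE 0.083, limma adjusted p = 0.168). Its other probes did not share this difference, at 0.14, 0.17 and -0.03 (adjusted p = 0.959, 0.959 and 0.986). Mta2, another NuRD subunit, was at 0.30 (SE 0.071, adjusted p = 0.485). In the other direction, by the brightest probe of each gene, the smallest p belonged to the remodeller Chd3 at -0.19 (SE 0.12, adjusted p = 0.942) and the cell cycle inhibitor Cdkn1a at -0.16 (SE 0.16, adjusted p = 0.962), with -0.28 and -0.32 at the other probes of Cdkn1a (adjusted p = 0.953 and 0.817). None of these passed the threshold.

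Of 22 genes of mitochondrial calcium handling listed with TMEM65, all 22 had a probe and 16 were above the limit on at least 3 arrays. By limma 0 were called in either direction, with counts of 1 and 2 at an unadjusted p under 0.05. The median difference of the 16 was 0.02, from -0.33 to 0.29. Slc8b1, the mitochondrial sodium/calcium exchanger, was at -0.15 (SE 0.078, limma adjusted p = 0.924), and Mcu, the pore of the calcium uniporter, at 0.04 (SE 0.22, adjusted p = 0.995). Gja1, which encodes connexin 43, did not exceed the limit on any array, so that its change cannot be given.

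The uniporter subunit Smdt1 was at 12.02 ± 0.08 at 4 h and 12.32 ± 0.09 at 16 h (SD, n = 3), and the time points did not overlap. Its difference of -0.30 (SE 0.077, limma adjusted p = 0.541) did not pass the threshold. On the other side, the calcium-regulated carrier Slc25a25 was at 0.23 (SE 0.10, adjusted p = 0.919) and the outer membrane channel Vdac3 at 0.19 (SE 0.084, adjusted p = 0.919). With no between-array normalization or with median scaling, differences on all 3 lists include the rise of 0.39 or 0.30 shared by detected probes.

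**Figure D4:**
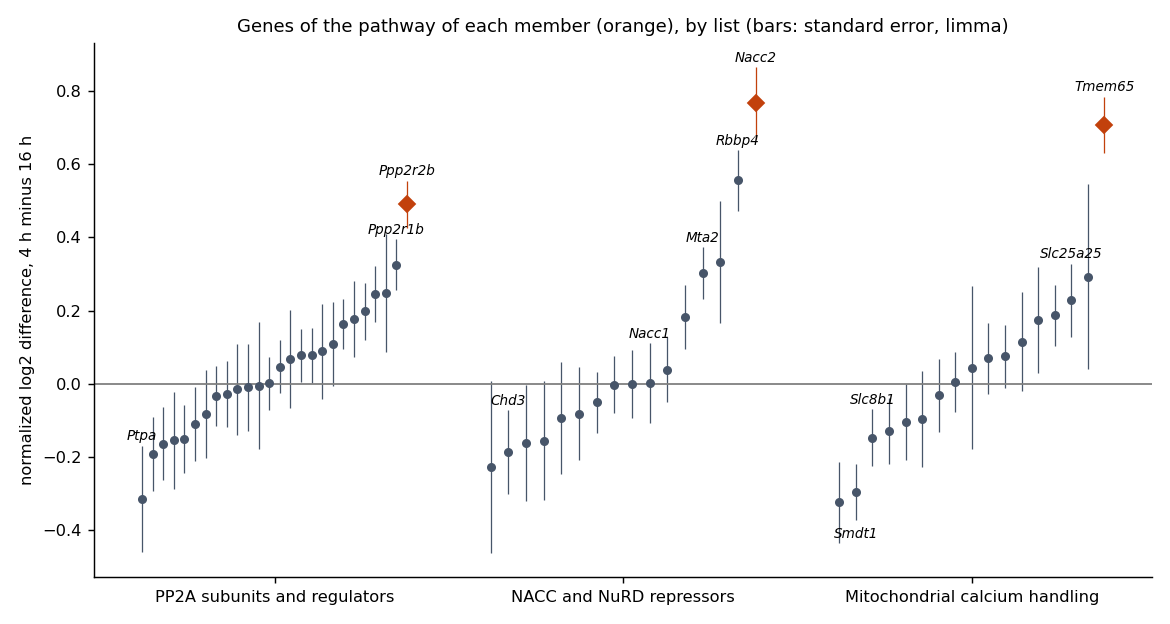
Normalized log2 difference, 4 h minus 16 h (vertical axis), of each listed gene above the noise limit on at least 3 arrays, ordered by value within each list, with bars of 1 standard error from limma. The members (orange diamonds, at 0.49, 0.77 and 0.71, chosen by this difference) lie at the top of lists whose other genes have medians of 0.00036, -0.0025 and 0.02.

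The excess of the brightest probes was last compared over the settings of processing. It stayed above 0 in all 15 alternatives for each gene, from 0.63 to 0.81 for TMEM65, from 0.67 to 0.96 for NACC2 and from 0.38 to 0.58 for PPP2R2B. The genes had been chosen by this contrast on these same arrays, so that this is a description and no further evidence of a rise. The alternatives included the mean over the detected probes that carry a gene's symbol, without the older-name Tmem65 probe ILMN_2548916, whose excess was 0.39. This mean gave the 0.63 of TMEM65 and the 0.38 of PPP2R2B. With the brightest probe alone, the lowest values of these genes were 0.66 and 0.47. When single arrays were left out, the excess was between 0.66 and 0.77 for TMEM65, between 0.67 and 0.83 for NACC2 and between 0.47 and 0.51 for PPP2R2B. The order of NACC2 and TMEM65 was turned without 16 h replicate 1, where their excess was 0.67 and 0.77, and without 4 h replicate 3, where it was 0.70 and 0.71, so that these genes are not ordered by these arrays. The excess of PPP2R2B was the smallest of the 3 in every setting that was run.

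**Figure D5:**
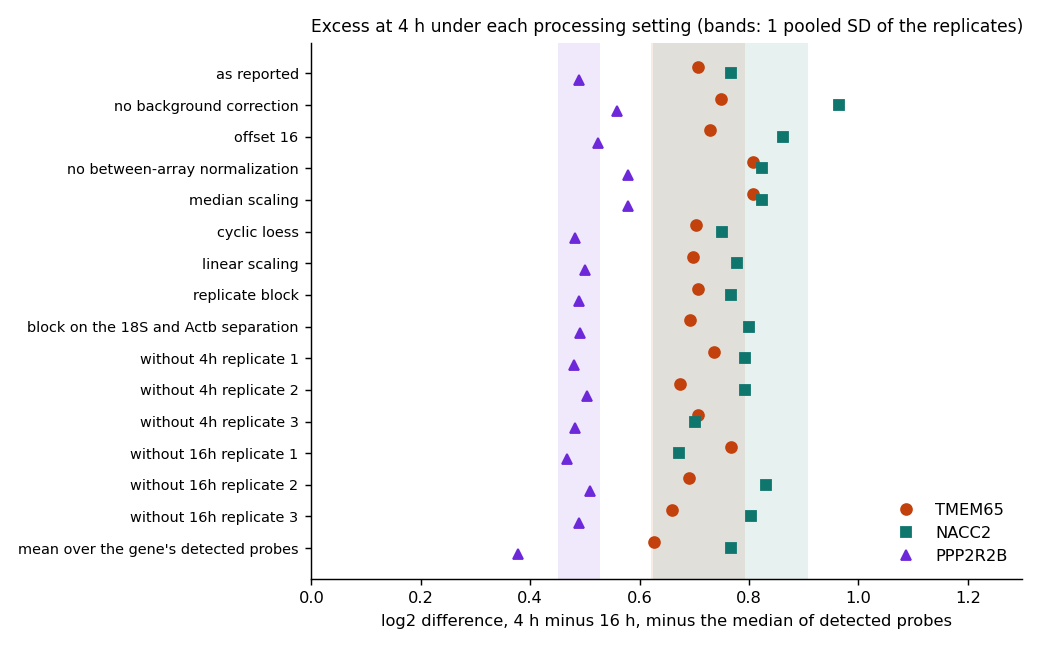
Excess of the brightest probe of TMEM65 (circles), NACC2 (squares) and PPP2R2B (triangles) on the log2 scale (horizontal axis) under each processing setting (rows), with bands of 1 pooled SD of the replicates around the reported value. All points lie above 0, and the lowest, 0.38, is that of PPP2R2B when its detected probes are averaged.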

How the data were processed

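RNA of 6 mGLUTag samples was read on 1 mouse Illumina array each. The deposited values are linear intensities for 45281 probes, not normalized between arrays. They include negative values, so that background had been subtracted before deposit, with settings not stated in the sources used here. Detection p-values, control probes and slides were not used here, and scanner software and genome build are not given in the sources used here. The labelled time point set the groups.

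Intensities were background corrected by normexp (offset 50, which shrinks differences of dim probes), quantile normalized and converted to log2 in limma 3.58.1 (R 4.3.3). All probes were fitted with lmFit and eBayes with time as the term, with Benjamini-Hochberg adjustment of two-sided p-values across all probes (threshold 0.05). A change common to most transcripts is lost in quantile normalization. The noise limit was the 99th percentile of the sign-turned values below 0 of an array. The excess is a log2 difference minus its median over detected probes. With 3 arrays against 3, an exact permutation test cannot give a two-sided p under 0.1, and the number of arrays limits precision.

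The members and lists were chosen with earlier results of these data known. Genes were named by rule: all probes of the members, their paralogues and partners, the 2 listed genes of smallest p in each direction, the 3 nearest profiles and the 2 neighbours on either side. Some genes selected in this way are not reported here. Symbols were matched to a RefSeq table (GRCm38.p6): 27760 probes by symbol, 7994 by synonym and 9527 not at all. A gene was represented by its probe of highest mean. Alternatives were other background, normalization and offset settings, an 18S block, a replicate block, single arrays left out, filtering, variance settings and probe averaging. The procedure was tested on simulated data.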

Additional observations from a re-analysis of the deposited data

How the results depend on the processing

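The excess of TMEM65 (0.71 as reported) was 0.81 without normalization between arrays and with median scaling. That of NACC2 (0.77) was 0.96 without background correction. That of PPP2R2B (0.49) was 0.56 without background correction, 0.58 without normalization between arrays and with median scaling, and 0.38 as the mean of its detected probes. The other alternatives (13, 14 and 11 of 15, the replicate block among them) moved the excess by less than 1 pooled SD, and none turned it below 0. For NACC2 they include the mean over detected probes, which cannot differ from the reported value because only 1 of its probes was detected. When single arrays were left out, the excess ranged from 0.66 to 0.77 for TMEM65, from 0.67 to 0.83 for NACC2 and from 0.47 to 0.51 for PPP2R2B.

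In each list 0 genes were called higher. With no between-array normalization, 7 of 27 PP2A genes, 2 of 18 NACC and NuRD genes and 2 of 22 mitochondrial calcium genes were called, and with median scaling 2 PP2A genes and 2 NACC and NuRD genes. Over all 28902 genes, 1802 and 675 were called higher in these settings. These settings keep the shared rise, 0.39 or 0.30 as the median of detected probes. The count called lower was 0 under every alternative run, and leaving out single arrays gave between 0 and 0 in both directions.

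Deviations of same-numbered replicates from their time point means correlated with r of 0.25, 0.17 and -0.49 across probes, which are not independent replicates. With 3 arrays per time point, these values cannot decide whether the numbers pair the samples. With a replicate block 0 listed genes were called; the excess values, 0.71, 0.77 and 0.49, cannot change with this block in a balanced design, so that their being the same says nothing of stability. With the arrays of high 18S signal as a block, the PPP2R2B probe ILMN_3028493 was at 0.20, against 0.27, and without 4 h replicate 3 at 0.15. Signal over background limits the dim probes of each gene, and 3 arrays per time point limit the rest.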

Other observations

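The nearest genes on either side of each member in the RefSeq gene table were read as a further comparison, with no test of neighbourhood. Beside Tmem65, Fer1l6, a ferlin-family gene, had a normalized log2 difference of 0.34 (SE 0.083, limma adjusted p = 0.498), Fam91a1 of 0.11 (adjusted p = 0.968) and the ubiquitin ligase Rnf139 of 0.17 (adjusted p = 0.943), and Trmt12 was above the noise limit on 2 arrays only. Beside Nacc2, the values were 0.20 for Camsap1, a microtubule minus-end binding protein (adjusted p = 0.919), 0.07 for Ubac1 (adjusted p = 0.962), and -0.22 for Tmem250-ps (adjusted p = 0.959). The homeobox gene Lhx3 exceeded the limit on 0 of the 4 h arrays and 3 of the 16 h arrays, and at 16 h its normalized level was at least 1.06-fold higher (mean 6.28 against a bound of 6.20 and a measured mean of 6.10, adjusted p = 0.883). Beside Ppp2r2b, they were 0.23 for the kinase Stk32a (adjusted p = 0.912) and -0.27 for Dpysl3 (adjusted p = 0.919), and Gpr151 was above the limit on no array. Of these 12 neighbours, 0 passed the threshold in limma.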
